A study of Saccharomyces cerevisiae with 12 samples.

Results

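The genes of ribonucleotide reductase and of its small protein inhibitors in budding yeast, Saccharomyces cerevisiae, are the 7 genes RNR1, RNR3, RNR2, RNR4, HUG1, DIF1 and SML1. They were chosen by name, as the rows of the gene class whose symbol equals one of these names. This rule uses no measured value, but earlier results of these data were known when the genes were chosen. All 7 were found among 5798 genes and 12026 annotated features, and all 7 passed the filter on low values.

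Ribonucleotide reductase makes the deoxyribonucleotides for DNA synthesis from ribonucleotides. Its large subunit, which holds the catalytic and regulatory sites, is Rnr1 or the damage-inducible Rnr3, and its small subunits are Rnr2, which carries the radical cofactor, and its partner Rnr4. When replication is hindered or DNA is damaged, the checkpoint kinases Mec1, Rad53 and Dun1 relieve the repressor Rfx1 (Crt1) from the promoters of RNR2, RNR3, RNR4 and HUG1. The same kinases mark Sml1, which binds Rnr1, and Dif1, which carries the small subunits into the nucleus, for destruction, while RNR1 is transcribed with the G1/S genes under the factor MBF.

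Total RNA was depleted of rRNA and sequenced on the Illumina platform with a stranded kit and paired reads. Wild-type cells with FU, read as the anti-cancer drug 5-fluorouracil from the name of the series, and cells with a deletion of RRP6, the nuclear exosome 3′ exonuclease, were set beside wild-type cells without the drug. Each of these was sampled at 100 min and at 40 min after synchronization, with 2 biological replicates, which makes 6 groups and 12 libraries. The dose of FU, when it was added, how the cells were synchronized, and whether same-numbered replicates shared a culture are details that the sources used here do not give. The deposited value is a read density: reads per nucleotide of each feature, after each library was scaled to 14370740 reads over genes. Fold changes are on the log2(density + 0.0120173) scale and come from 1 limma fit over all 12 libraries, with p-values adjusted over 11485 features, and a gene is called when its adjusted p is below 0.05.

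RRP6 itself had densities of 0.0507 to 0.0781 in the 4 rrp6 libraries, against 0.868 to 1.30 in the 4 wild-type libraries (log2 fold change −3.69 ± 0.21 SE at 100 min, limma adjusted p = 9.01e-06, and −3.81 ± 0.21 at 40 min, adjusted p = 9.10e-06). The libraries held 20102931 to 27498217 reads over all features. On the deposited scale the median gene stood above 0 in every comparison with wild type, by 0.30 at 100 min and 0.37 at 40 min with FU, and by 0.45 at both times in rrp6, and near 0 after scaling by the median of ratios. The snoRNA share of reads was 15.4% and 20.9% in replicate 2 with FU at 100 and 40 min, against 11.9% and 10.1% in replicate 1, and in wild type at 40 min it was 20.2% in replicate 2 and 11.7% in replicate 1. It lay between 9.99% and 10.3% in all rrp6 libraries.

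The sequences upstream of the genes are shown because 4 of these genes, RNR2, RNR3, RNR4 and HUG1, moved together with FU, and because RNR1 carries another kind of motif. In the 500 bases before each start codon of the R64 reference genome, the core of the Rfx1 binding site, GTTGCC or its complement GGCAAC, was searched on both strands. Of 5773 genes, 13.8% held at least 1 match, 0.987% at least 2 and 0.0866%, or 5 genes, at least 3. RNR2 held 3 matches at −476, −433 and −367 from the start codon, HUG1 held 2 at −213 and −166, and RNR3, RNR4 and RNR1 held 1 each at −271, −386 and −169. DIF1 and SML1 held 0. The site ACGCGT, the MluI cell-cycle box bound by MBF, stood 4 times upstream of RNR1, at −492, −442, −371 and −306, and RNR1 was the only gene of 5773 with at least 3. RNR3 held 1 such box at −187, and 5.46% of genes held at least 1. A match is a description of letters, not a measured site. In the stretches below, printed 5′ to 3′ in the direction of each gene, capitals mark these motifs.
HUG1, chr13:158517-158629, plus strand, −243 to −131: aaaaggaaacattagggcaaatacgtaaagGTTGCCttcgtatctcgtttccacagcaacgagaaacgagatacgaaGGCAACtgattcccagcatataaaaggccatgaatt
RNR3, chr9:240860-241009, minus strand, −301 to −152: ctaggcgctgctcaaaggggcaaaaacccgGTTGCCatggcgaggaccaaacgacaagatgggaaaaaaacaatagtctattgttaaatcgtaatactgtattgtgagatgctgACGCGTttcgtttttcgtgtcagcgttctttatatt
RNR2, chr10:391904-392072, plus strand, −500 to −332: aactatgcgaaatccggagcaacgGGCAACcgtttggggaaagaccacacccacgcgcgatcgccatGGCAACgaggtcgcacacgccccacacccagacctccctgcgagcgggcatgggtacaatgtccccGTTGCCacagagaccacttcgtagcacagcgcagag
RNR4, chr7:856652-856717, minus strand, −416 to −351: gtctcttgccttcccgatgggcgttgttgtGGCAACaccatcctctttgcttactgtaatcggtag
RNR1, chr5:298450-298679, plus strand, −500 to −271: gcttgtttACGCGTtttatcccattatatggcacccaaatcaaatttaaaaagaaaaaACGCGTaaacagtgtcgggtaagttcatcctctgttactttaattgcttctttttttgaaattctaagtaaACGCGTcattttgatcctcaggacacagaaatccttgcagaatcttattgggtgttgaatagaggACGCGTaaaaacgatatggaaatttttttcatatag

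The HUG1 stretch shows one further feature, noticed after the sequence was seen. Its matches lie at the ends of an inverted repeat whose arms of 21 bases, at −213 to −193 and −181 to −161, are exact complements with 11 bases between them. Arms of at least 21 bases occurred upstream of 5 of 5773 genes (0.0866%), and the median longest arm of a gene was 9 bases. The longest arms were 14 bases for RNR1, 10 for RNR3 and DIF1, 9 for SML1 and 8 for RNR2 and RNR4. The RNR2 stretch overlaps YJL027C, an open reading frame on the other strand, and the RNR4 stretch overlaps the unannotated transcript SUT135 on the other strand.

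With FU at 100 min, the damage-inducible genes of the enzyme were among the genes furthest above wild type. HUG1, RNR4, RNR3 and RNR2 rose, and by fold change they stood at ranks 1, 3, 4 and 6 of 5725 genes tested. In all, 4 of 7 genes were called, each of them higher, where 2.71% of all genes were called in either direction, and the median log2 fold change of the 7 was 3.04 against 0.30 for all genes. RNR1, DIF1 and SML1 had log2 fold changes of 1.70, 0.99 and 1.64 and did not pass the threshold. For all 7 genes both FU libraries lay above both wild-type libraries at this time. The share of all genes that do so was not counted, and the median gene itself stood 0.30 above wild type on the log2 scale. Amounts are per total reads over genes in mixed cultures, so a shift in the share of cells in a phase and a change of RNA per cell cannot be told apart.

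**Figure D1:**
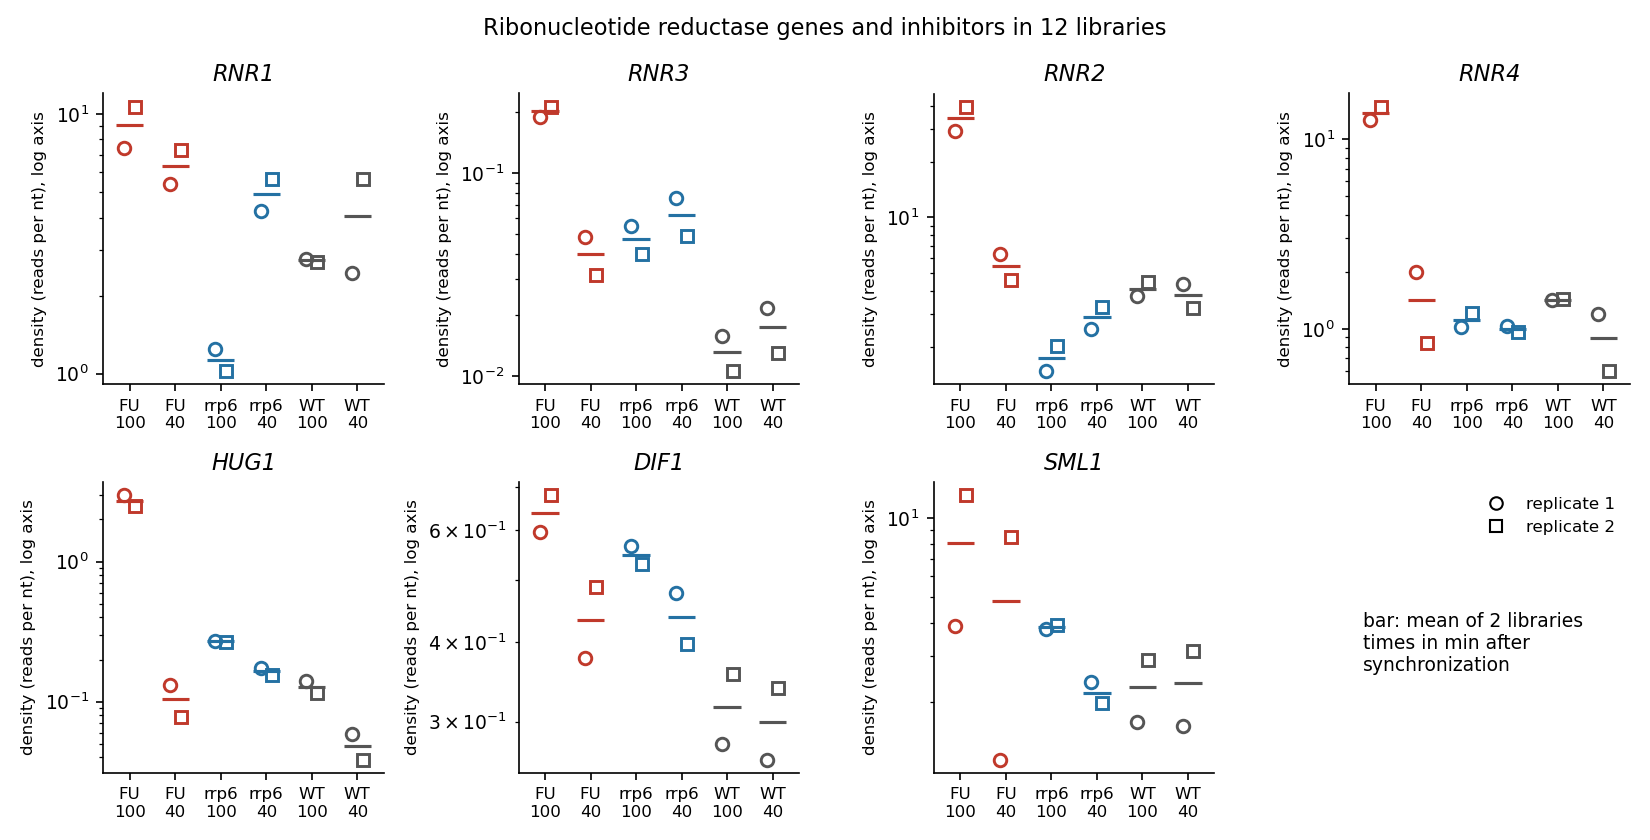
Read density (reads per nucleotide, log axis) of each gene in the 12 libraries, with FU, rrp6 and wild type (WT) at 100 and 40 min from left to right; circles are replicate 1, squares replicate 2, and bars the mean of 2 libraries. All genes but SML1 stand highest in the FU libraries at 100 min, RNR3, RNR2, RNR4 and HUG1 by the widest margins.

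The large subunit genes differed in abundance. RNR3 (YIL066C, chr9:238099-240708, minus strand), whose product replaces Rnr1 in part under damage, had densities of 0.190 and 0.213 in the FU libraries at 100 min, against 0.0157 and 0.0106 in the wild-type libraries. These wild-type values rest on 42 and 30 reads, while the FU values rest on 626 and 640. The ratio of the mean densities was 15.4, and RNR3 rose by a log2 fold change of 3.09 ± 0.30 (SE) in the fit (limma adjusted p = 0.00226). Since wild type lies at about the pseudocount, the fit understates this change. Fitted by limma-voom on the recovered reads, without this pseudocount, it was 3.95. A pseudocount 10 times larger gave 1.27, still called.

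RNR1 (YER070W, chr5:298950-301616, plus strand), the main large subunit, had densities of 7.43 and 10.7 with FU at 100 min, against 2.78 and 2.70 in wild type. Both FU values are higher than any of the other 10 libraries. The ratio of means was 3.31 and the log2 fold change 1.70 ± 0.37 (SE, limma adjusted p = 0.0507, 95% interval 0.87 to 2.52), so RNR1 did not pass the threshold. It was called in 4 of 12 alternatives, namely the smaller pseudocount, limma-voom, the replicate block and only the libraries compared, and adjusted p-values over the 12 ran from 0.000745 to 0.240. The coding sequences of RNR1 and RNR3 were 77.8% identical, and their longest shared run of 38 bases is shorter than a read of 50 bases.

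The small subunit genes showed the largest gains in read density of these genes. RNR2 (YJL026W, chr10:392404-393603, plus strand) had densities of 29.1 and 39.5 with FU at 100 min, against 3.78 and 4.46 in wild type. The mean was 34.3 ± 7.4 with FU and 4.12 ± 0.48 in wild type (SD, n = 2 each), a ratio of 8.32. RNR2 rose by 3.04 ± 0.27 on the log2 scale (SE, limma adjusted p = 0.00169), and the call held under each of the 12 alternatives run for it.

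RNR4 (YGR180C, chr7:855264-856301, minus strand) had densities of 12.6 and 14.9 with FU at 100 min, against 1.42 and 1.43 in wild type. The ratio of means was 9.65 and the log2 fold change 3.25 ± 0.40 (SE, limma adjusted p = 0.00615). The RNR4 call was lost without any 1 of the 4 libraries compared, with adjusted p-values of 0.0514 to 0.0682 and log2 fold changes of 3.14 to 3.37. RNR2 and RNR4 moved by like amounts, so that the ratio of their densities was 2.31 and 2.66 with FU, against 2.67 and 3.11 in wild type.

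HUG1 (YML058W-A, chr13:158760-158966, plus strand), a small protein induced by DNA damage that binds the small subunits, had the largest fold change of the 5725 genes. Its densities were 2.98 and 2.48 with FU at 100 min, from 776 and 590 reads, against 0.141 and 0.115 in wild type, from 30 and 26 reads. The groups lie far apart, with a ratio of means of 21.2. HUG1 rose by 4.29 ± 0.28 on the log2 scale (SE, limma adjusted p = 0.000798), and this call also held under each of the 12 alternatives.

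SML1 (YML058W, chr13:159383-159697, plus strand), the Rnr1 inhibitor, starts 416 bases after the end of HUG1 on the same strand. Its densities with FU at 100 min were 3.87 and 12.2, against 1.68 and 2.88 in wild type. Replicate 2 was the higher in all 4 FU and wild-type groups, among them FU at 40 min with 1.21 in replicate 1 and 8.46 in replicate 2, and the snoRNA share was the higher in replicate 2 of the same groups. The part of the snoRNA share in the SML1 values was not tested. With this spread the log2 fold change of 1.64 ± 0.82 (SE, limma adjusted p = 0.278, 95% interval −0.22 to 3.50) did not pass. The density of HUG1 was 76.9% and 20.2% of that of SML1 with FU at 100 min, against 8.39% and 4.0% in wild type.

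DIF1 (YLR437C, chr12:1011622-1012023, minus strand), which carries Rnr2 and Rnr4 into the nucleus, moved least. Its densities were 0.597 and 0.681 with FU at 100 min, against 0.276 and 0.356 in wild type. The groups did not overlap, and the log2 fold change of 0.99 ± 0.22 (SE, limma adjusted p = 0.0552) missed the threshold, 0.70 above the median gene. DIF1 was called in 3 of 12 alternatives, namely the smaller pseudocount, the replicate block and only the libraries compared, and adjusted p-values over the 12 ran from 0.0161 to 0.441.

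**Figure D2:**
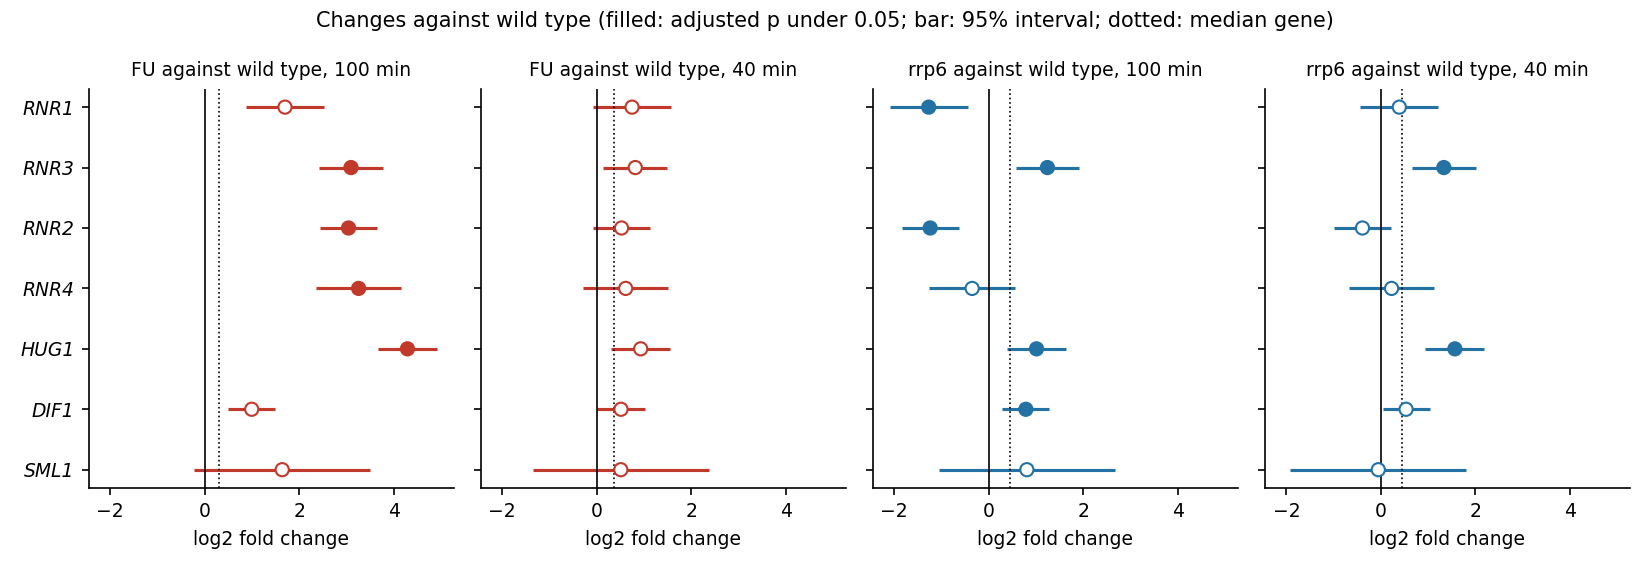
Log2 fold change of each gene with FU (red) and in rrp6 (blue) against wild type at 100 and 40 min, with 95% intervals; filled points have an adjusted p below 0.05 and the dotted line is the median gene. With FU at 100 min 4 genes are filled and lie above 3, and in rrp6 at 100 min RNR1 and RNR2 lie at −1.27 and −1.24 while RNR3, HUG1 and DIF1 lie above 0.

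Ratios of densities within a library do not depend on the scaling between libraries. RNR2 stood at 3.91 and 3.69 times the density of RNR1 with FU at 100 min, at 1.19 and 1.97 times in rrp6, and at 1.36 and 1.65 times in wild type. The FU libraries at 100 min were the highest of all 12. RNR3 made up 2.50% and 1.95% of the summed density of RNR1 and RNR3 with FU at 100 min, 4.22% and 3.77% in rrp6, and 0.561% and 0.389% in wild type. The share of RNR3 was thus highest in rrp6, where RNR1 was low, and the RNR3 transcript remained a small part of the large subunit transcripts in every library. At 40 min the same share was 0.888% and 0.429% with FU, 1.75% and 0.866% in rrp6, and 0.878% and 0.230% in wild type, and the FU and wild-type libraries overlapped.

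**Figure D3:**
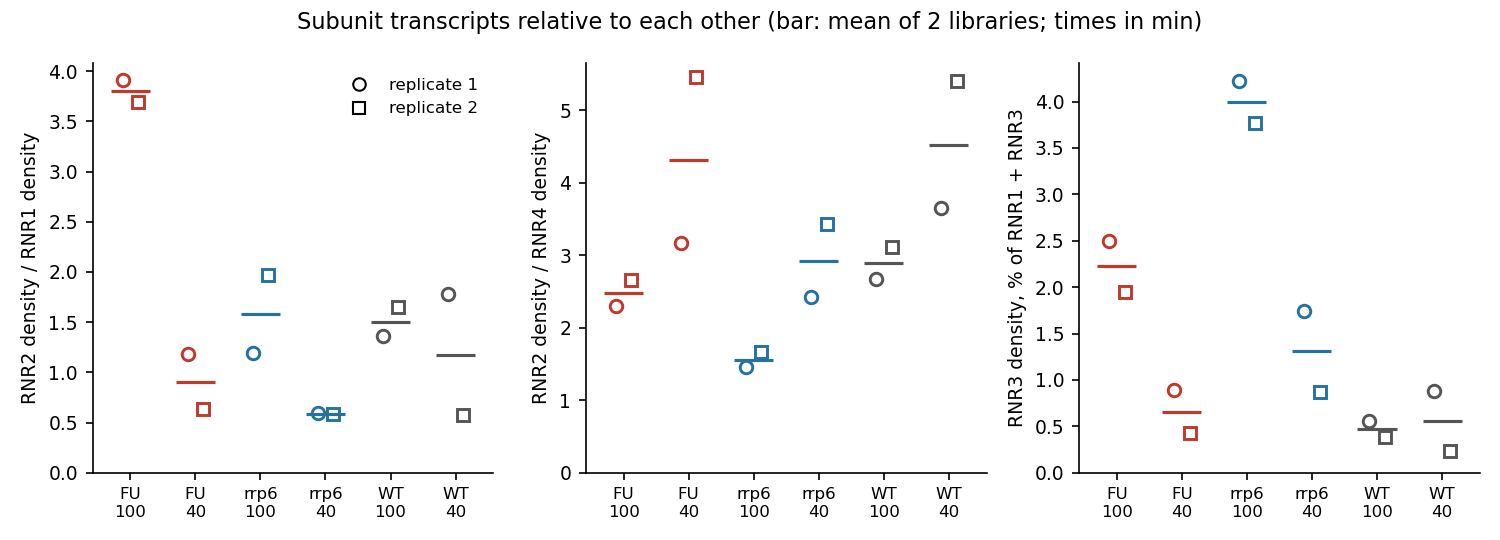
Ratios of read densities within each library: RNR2 to RNR1 (left), RNR2 to RNR4 (middle) and RNR3 as a percentage of RNR1 plus RNR3 (right), with bars at the mean of 2 libraries. The RNR2 to RNR1 ratio is 3.69 and 3.91 in the FU libraries at 100 min and below 2 in the other libraries, and the RNR3 share is highest in the rrp6 libraries at 100 min, at 4.22% and 3.77%.

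At 40 min the response to FU was small. By limma 0 of 7 genes were called against wild type, where 1.80% of all genes were called, and 3 had an unadjusted p below 0.05 (limma-voom called 0). HUG1 came closest, at 0.132 and 0.0781 with FU, against 0.0586 and 0.0386 in wild type (log2 fold change 0.93 ± 0.28 SE, limma adjusted p = 0.0895). RNR3 followed at 0.0482 and 0.0313 with FU, against 0.0217 and 0.0130 in wild type (0.81 ± 0.30, adjusted p = 0.126). RNR1 had 5.39 and 7.26 with FU, against 2.45 and 5.66 in wild type, where the groups overlapped. RNR2 had 6.35 and 4.60 with FU, against 4.37 and 3.23 in wild type, and its log2 fold change was 0.52, close to the 0.37 of the median gene. RNR4 ranged from 0.844 to 2.00 with FU, against 0.598 to 1.20 in wild type, and DIF1 from 0.377 to 0.489 with FU, against 0.262 to 0.338 in wild type.

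Within the FU cultures, 4 of 7 genes were called higher at 100 min than at 40 min, where 5.31% of all genes were called. HUG1 had 2.98 and 2.48 at 100 min, against 0.132 and 0.0781 at 40 min, a log2 fold change of 4.58 ± 0.28 (SE, limma adjusted p = 0.000460). RNR4 rose by 3.38 (adjusted p = 0.00665), RNR2 by 2.65 (0.00292) and RNR3 by 2.06 (0.0129). The RNR2, RNR3 and RNR4 calls were lost when only the FU libraries were fitted, and each of these was also lost without replicate 2 of FU at 100 min, with RNR3 and RNR4 lost without replicate 1 as well and RNR3 without replicate 2 of FU at 40 min. In wild type 0 of 7 genes were called between 100 and 40 min by limma, where 3.76% of all genes were called, with 1 at an unadjusted p below 0.05 and 0 by limma-voom. That gene was HUG1, at 0.141 and 0.115 at 100 min, against 0.0586 and 0.0386 at 40 min (log2 fold change 1.22, adjusted p = 0.0588).

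The change of the FU effect with time was tested directly as an interaction. HUG1 was called, with an FU effect larger by 3.36 ± 0.39 on the log2 scale at 100 min than at 40 min (SE, limma adjusted p = 0.0226), where 0.192% of all genes were called and HUG1 was the only one of all features with a positive difference among them. Its call was lost without any 1 of the 4 libraries of FU and wild type at 100 min, with quantile normalization, with limma-voom (adjusted p = 0.0722), and when only the FU and wild-type libraries were fitted (0.174). RNR4, RNR2 and RNR3 had differences of 2.64, 2.52 and 2.28, the ranks 4, 6 and 11 of 5725 genes, but adjusted p-values of 0.233, 0.0675 and 0.146. For these 3 genes a larger FU effect at 100 min is therefore not shown by this test.

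In rrp6 the genes of the enzyme split. At 100 min RNR1 and RNR2 fell, while RNR3, HUG1 and DIF1 rose on the deposited scale, so that 3 of 7 genes were called higher and 2 lower, where 39.7% of all genes were called. RNR1 had densities of 1.24 and 1.02 in rrp6, against 2.78 and 2.70 in wild type, and fell by 1.27 ± 0.37 on the log2 scale (SE, limma adjusted p = 0.0140). RNR2 had 1.48 and 2.02 in rrp6, against 3.78 and 4.46 in wild type, and fell by 1.24 ± 0.27 (adjusted p = 0.00318). Relative to the median gene, which stood at 0.45, RNR1 and RNR2 lay at −1.73 and −1.69. The RNR2 call held under all 12 alternatives, while that of RNR1 was lost without rrp6 replicate 2 (adjusted p = 0.0820), wild-type replicate 1 (0.0602) or wild-type replicate 2 (0.0550). RNR4, with 1.02 and 1.22 in rrp6, against 1.42 and 1.43 in wild type, had a log2 fold change of −0.35 (adjusted p = 0.467).

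RNR3 had densities of 0.0547 and 0.0401 in rrp6 at 100 min, against 0.0157 and 0.0106 in wild type, a log2 fold change of 1.24 ± 0.30 (SE, limma adjusted p = 0.00592) that became −0.46 under quantile normalization over all features. HUG1 had 0.273 and 0.265 in rrp6, against 0.141 and 0.115 in wild type (1.01 ± 0.28, adjusted p = 0.0113, and −0.42 under quantile normalization). DIF1 had 0.566 and 0.532 in rrp6, against 0.276 and 0.356 in wild type (0.78 ± 0.22, adjusted p = 0.0130, and −0.11 under quantile normalization). These 3 rises depend on the scaling: relative to the median gene they are 0.78, 0.55 and 0.33, and the HUG1 and DIF1 calls were lost with median of ratios scaling. The HUG1 call was also lost without rrp6 replicate 1, rrp6 replicate 2 or wild-type replicate 2, and the DIF1 call without rrp6 replicate 1, rrp6 replicate 2 or wild-type replicate 1. Under quantile normalization the median gene itself stood at −0.45. SML1, with 3.78 and 3.94 in rrp6, against 1.68 and 2.88 in wild type, was not called (0.80, adjusted p = 0.421).

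At 40 min 2 of 7 genes were called in rrp6, both higher on the deposited scale, where 37.5% of all genes were called. HUG1 had 0.175 and 0.155 in rrp6, against 0.0586 and 0.0386 in wild type (log2 fold change 1.56 ± 0.28 SE, limma adjusted p = 0.00126, and −0.09 under quantile normalization). RNR3 had 0.0752 and 0.0492 in rrp6, against 0.0217 and 0.0130 in wild type (1.33 ± 0.30, adjusted p = 0.00441, and −0.34 under quantile normalization). RNR1, at 4.23 and 5.63 in rrp6, against 2.45 and 5.66 in wild type, was not called and its groups overlapped. RNR2 ranged from 2.50 to 3.28 in rrp6, against 3.23 to 4.37 in wild type, RNR4 from 0.957 to 1.03 in rrp6, against 0.598 to 1.20 in wild type, and SML1 from 1.97 to 2.37 in rrp6, against 1.62 to 3.12 in wild type, so that each pair of groups overlapped. DIF1, at 0.478 and 0.398 in rrp6, against 0.262 and 0.338 in wild type, did not pass the threshold (0.53, adjusted p = 0.0652).

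Between the times, RNR1 in rrp6 had 1.24 and 1.02 at 100 min, against 4.23 and 5.63 at 40 min, and fell by 2.10 ± 0.37 on the log2 scale (limma adjusted p = 0.0264). It was the only gene of the 7 called there, 2.57% of all genes were called, and its call was lost without any 1 of the 4 rrp6 libraries and with median of ratios scaling (adjusted p = 0.0660). For the change of the rrp6 effect with time, limma called 0 of 7 genes, with 2 at an unadjusted p below 0.05 and 0 by limma-voom, where 0.140% of all genes were called. RNR1 had the lowest of these differences, −1.66 ± 0.52 (adjusted p = 0.436).

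The comparisons of FU and of rrp6 with wild type share the wild-type libraries, so FU was also set against rrp6 directly. At 100 min 5 of 7 genes were called, each of them higher with FU, where 22.8% of all genes were called. RNR2, at 29.1 and 39.5 with FU, against 1.48 and 2.02 in rrp6, had the largest log2 fold change of all 5725 genes, 4.28 ± 0.27 (SE, limma adjusted p = 4.85e-05). RNR4 rose by 3.61, HUG1 by 3.28, RNR1 by 2.97 and RNR3 by 1.86, with adjusted p-values of 0.000221, 9.18e-05, 0.000331 and 0.00117. These 5 calls held in all 12 alternatives. DIF1 (0.21, adjusted p = 0.479, 95% interval −0.29 to 0.71) and SML1 (0.83, adjusted p = 0.454) were not called. At 40 min RNR2 alone of the 7 was called, at 6.35 and 4.60 with FU, against 2.50 and 3.28 in rrp6 (0.91 ± 0.27, adjusted p = 0.0254), where 13.9% of all genes were called, and this call was lost without FU replicate 1 or rrp6 replicate 1 and when only these 4 libraries were fitted.

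The stranded libraries also hold transcripts from the strand opposite to the genes. The table annotates 5 features that overlap these genes on the other strand: the Xrn1-sensitive transcript XUT1145 and the cryptic unstable transcript CUT559 on RNR1, the dubious open reading frame YJL026C-A on RNR2, and the meiotic unannotated transcripts MUT788 on RNR3 and MUT1091 on HUG1 and SML1. In rrp6 at 100 min 5 of 5 rose and at 40 min 4 of 5 did, and their median log2 fold changes of 2.62 and 2.18 stand beside 1.79 and 1.68 for all tested features other than genes, of which 79.9% and 76.4% were called. Calls in rrp6 were thus shared by most tested features other than genes.

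YJL026C-A, inside RNR2 on the other strand (chr10:393066-393287), had densities of 0.455 and 0.564 in rrp6 at 100 min, against 0.0176 and 0.0165 in wild type. The log2 fold change was 4.16 ± 0.38 (SE, limma adjusted p = 4.43e-05), and 3.96 ± 0.38 at 40 min (adjusted p = 6.31e-05). It reached 27.9% and 30.7% of the RNR2 density in rrp6 at 100 min. In the FU libraries at 100 min, where RNR2 itself was highest, it stood at 0.0861% and 0.129% of the RNR2 density, from 7 and 13 reads, so reads of RNR2 counted on the wrong strand cannot exceed these shares there. Whether the authors counted with strand was not stated in the sources at hand.

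XUT1145 (chr5:300926-301143, 218 bases inside the end of RNR1) had 0.172 and 0.206 in rrp6 at 100 min, against 0.0179 and 0.00421 in wild type, which rest on 4 reads and 1 read (log2 fold change 3.19, limma adjusted p = 5.59e-05). CUT559 (chr5:301023-301695), which overlaps XUT1145 and RNR1, had 0.119 and 0.144 in rrp6, against 0.0116 and 0.0109 in wild type (2.62, adjusted p = 0.000102). These 2 annotations share reads, and their values are not independent. MUT1091 (chr13:158677-159677), which covers HUG1 whole and most of SML1, had 0.0487 and 0.0716 in rrp6, against 0.00974 and 0.0119 in wild type (1.64, adjusted p = 0.000836). MUT788 was the lowest, with 23 and 8 reads in rrp6 at 100 min, against 0 and 3 in wild type (adjusted p = 0.0293). Fold changes of features with so few reads depend on the pseudocount. At 40 min XUT1145 had 0.219 and 0.213 in rrp6, against 0.0111 and 0.0183 in wild type (3.10, adjusted p = 7.04e-05), and CUT559 had a log2 fold change of 2.18 (adjusted p = 0.000286). RNR1 and RNR2 were called lower in rrp6 at 100 min, where the features antisense to them were called higher. At 40 min the same features were also called higher, and RNR1 and RNR2 were not called. Their log2 fold changes at 40 min were 0.39 and −0.39, where the median gene stood at 0.45. The part of the antisense transcripts in the levels of the genes was not tested.

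With FU the antisense features moved less. At 40 min 2 of 5 were called higher by limma, where 3.75% of features other than genes were called: XUT1145, at 0.0626 and 0.0624 with FU, against 0.0111 and 0.0183 in wild type (log2 fold change 1.49, adjusted p = 0.0447), and YJL026C-A, at 0.0752 and 0.103 with FU, against 0.00729 and 0.0270 in wild type (1.87, adjusted p = 0.0441). These rest on 2 to 6 wild-type reads, and limma-voom called 0 of them. At 100 min limma called 0 of 5, with 1 at an unadjusted p below 0.05 and 0 by limma-voom, where 1.60% of features other than genes were called. Of the 5, XUT1145 had the largest log2 fold change at that time, 1.13 (adjusted p = 0.0880).

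**Figure D4:**
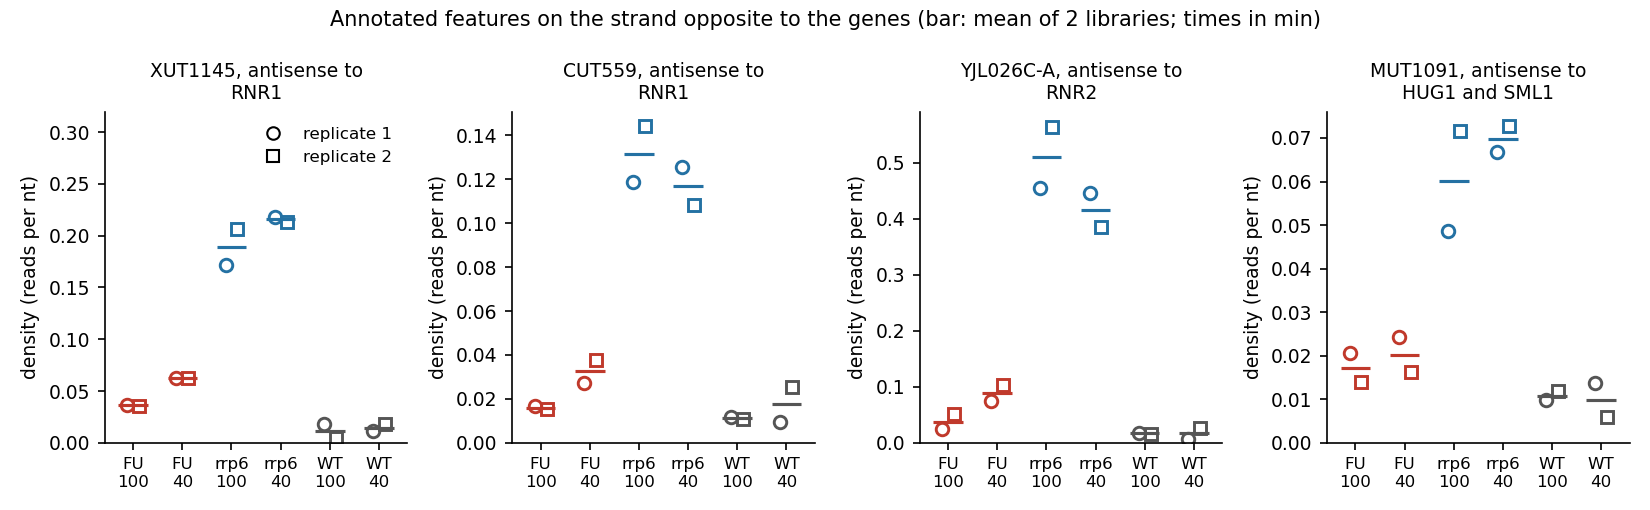
Read density (reads per nucleotide) of 4 features on the strand opposite to RNR1, RNR2, HUG1 and SML1 in the 12 libraries, with bars at the mean of 2 libraries. In each panel the 4 rrp6 libraries lie above all FU and wild-type libraries.

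The genes that act on the enzyme were described by lists. Of 11 checkpoint kinase and repressor genes, 2 were called with FU at 100 min, both higher, where 2.71% of all genes were called, with a list median of 0.60 against 0.30 for all genes. DUN1, the kinase that acts on Rfx1, Sml1 and Dif1, had 0.916 and 0.640 with FU, against 0.237 and 0.146 in wild type (log2 fold change 1.97 ± 0.34 SE, limma adjusted p = 0.0214). RFX1, the repressor, had 0.158 and 0.153 with FU, against 0.0584 and 0.0464 in wild type (1.38 ± 0.23, adjusted p = 0.0191). Both lay above wild type in each FU library at that time. At 40 min limma called 0 of 11 with FU, where 1.80% of all genes were called, with 1 at an unadjusted p below 0.05 and 0 by limma-voom. In rrp6, where 39.7% of all genes were called at 100 min and 37.5% at 40 min and the median gene stood at 0.45 at both times, calls in these lists are no more than a description. TEL1, MEC1 and RFX1, 3 of 11, were called higher at 100 min (2.01, 1.25 and 1.05), and MEC1, TEL1, MRC1 and RAD53, 4 of 11, at 40 min (0.94, 1.20, 0.72 and 0.71), with list medians of 0.54 and 0.46. MEC1 and TEL1 encode the sensor kinases. DUN1 was not called in rrp6 at either time. It was higher with FU than in rrp6 at 100 min by 1.88 (limma adjusted p = 0.00193). In that comparison 2 of 11 were called higher, DUN1 and RAD53, and 2 lower with FU, MEC1 and TEL1, where 22.8% of all genes were called.

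Of 5 regulators of RNR1 transcription, NRM1 was the only one called with FU at 100 min, where 2.71% of all genes were called. NRM1, which represses MBF targets after G1, had 0.458 and 0.358 with FU, against 0.0780 and 0.0637 in wild type (log2 fold change 2.34 ± 0.21 SE, limma adjusted p = 0.00169), and the groups were far apart. In rrp6 at 100 min 3 of 5 were called higher, where 39.7% of all genes were called and the median gene stood at 0.45: NRM1 by 1.26, IXR1, whose product binds the RNR1 promoter, by 1.99, and MBP1, the DNA-binding part of MBF, by 0.63. At 40 min SWI4 was higher in rrp6 by 0.99, where 37.5% of all genes were called. With FU limma then called 0 of 5, where 1.80% of all genes were called, with 2 at an unadjusted p below 0.05 and 0 by limma-voom.

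Genes that supply the enzyme with electrons and cofactor, and the other enzymes of the pathway, showed no call with FU against wild type. For the 9 cofactor and electron donor genes limma called 0 at 100 min and 0 at 40 min, where 2.71% and 1.80% of all genes were called. At an unadjusted p below 0.05 there were 3 and 2, and limma-voom called 0 at both times. In rrp6 39.7% of all genes were called at 100 min and 37.5% at 40 min, and the median gene stood at 0.45 at both times. There the thioredoxin genes TRX2 and TRX1, whose products reduce the enzyme, were lower at 100 min (−0.93 and −0.45) and at 40 min (−0.68 and −0.55). DRE2 and TAH18, which serve the assembly of the small subunit cofactor, were higher at 100 min (0.64 and 0.85) and at 40 min (0.65 and 1.04). TRX2 had 2.31 and 2.27 in rrp6 at 100 min, against 4.57 and 4.20 in wild type. Of 3 genes for the location of the small subunits, the importin gene KAP122 and WTM2 were higher in rrp6 at 40 min, by 0.91 and 0.63, and limma called 0 with FU at 100 min, with 0 at an unadjusted p below 0.05 and 0 by limma-voom.

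For the other 6 enzymes of deoxyribonucleotide supply, limma called 0 with FU at either time, with 0 at an unadjusted p below 0.05 and 0 by limma-voom. Of all genes 2.71% were called at 100 min and 1.80% at 40 min. They include CDC21, the thymidylate synthase that the drug's metabolite blocks, which had 0.458 and 0.304 with FU at 100 min, against 0.357 and 0.208 in wild type (log2 fold change 0.44 ± 0.42 SE, limma adjusted p = 0.563). In rrp6 the dCMP deaminase gene DCD1 was higher at 100 and 40 min (0.66 and 0.60) and YNK1, the nucleoside diphosphate kinase, lower at 100 min (−0.96). There 39.7% and 37.5% of all genes were called at 100 and 40 min, and the median gene stood at 0.45 at both times. CDC21 in rrp6 had 0.233 and 0.197 at 100 min, against 0.897 and 1.10 at 40 min (−2.15, adjusted p = 0.0375), a fall at the same times as that of RNR1.

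Markers of the cell cycle phases were measured beside these genes because the cultures were synchronized. The summed density of 4 M/G1 genes (EGT2, SIC1, CTS1 and ASH1) was 1.24 and 1.21 with FU at 100 min and 3.88 and 3.79 in rrp6, against 9.41 and 9.94 in wild type. Of these, limma called 4 of 4 lower with FU, where 2.71% of all genes were called in either direction. In rrp6 it called EGT2 and ASH1 lower, where 39.7% of all genes were called. EGT2 fell by 5.76 with FU (adjusted p = 0.00117). The 4 G1/S genes (CLN1, CLN2, CLB5 and CLB6) summed to 0.724 and 0.574 with FU at 100 min and 0.710 and 0.719 in rrp6, against 0.907 and 0.462 in wild type, where the libraries overlapped. The 4 G2/M genes (CLB1, CLB2, CDC20 and CDC5) summed to 1.63 and 1.27 with FU at 100 min and 2.78 and 2.62 in rrp6, against 1.11 and 1.36 in wild type. In rrp6 4 of 4 were called higher at 100 min, where 39.7% of all genes were called, and 3 of 4 at 40 min, where 37.5% were. The 4 histone genes of S phase (HTA1, HTB1, HHT2 and HHF2) summed to 62.8 and 54.5 with FU at 100 min and 65.0 and 58.1 in rrp6, against 54.2 and 41.5 in wild type. FU and wild-type cultures at 100 min thus differed in M/G1 genes at the time when the genes of the enzyme differed, and the part of cell cycle position in those differences was not tested.

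**Figure D5:**
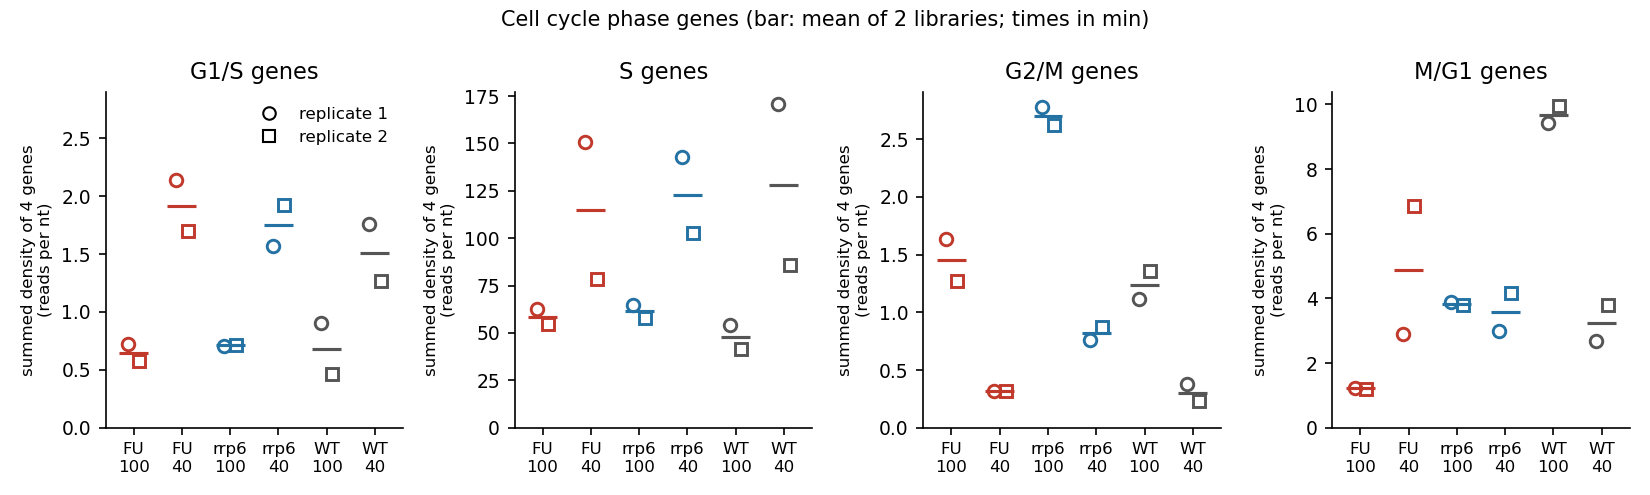
Summed read density (reads per nucleotide) of 4 marker genes for each cell cycle phase in the 12 libraries, with bars at the mean of 2 libraries. The M/G1 genes sum to 1.24 and 1.21 in the FU libraries at 100 min, the lowest of all libraries, and to 9.41 and 9.94 in wild type at 100 min.

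Among the genes outside these 7, the pattern most like the mean standardised profile of RNR2, RNR3, RNR4 and HUG1 over the 12 libraries was that of YOR378W, with a Pearson correlation of 0.898 among 5718 genes ranked. EMP47, an ER-to-Golgi cargo receptor, followed at 0.888, DFG5, a cell wall protein gene, at 0.879, YDL085C-A at 0.878 and SAY1, a sterol deacetylase gene, at 0.877. The 12 points are 6 groups of 2 replicates, and the profile is led by the FU libraries at 100 min. YOR378W had 0.0739 and 0.0836 with FU at 100 min, against 0.0315 and 0.0297 in wild type (log2 fold change 1.09, limma adjusted p = 0.0490), and YDL085C-A had 1.76 and 1.15 with FU, against 0.598 and 0.519 in wild type (1.34, adjusted p = 0.0155). The other 3 had log2 fold changes of 0.42 to 0.79 at that time and were not called.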

How the data were processed

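The deposited values are a signal for each annotated feature in each library, in the form of a read density. The submitters' processing notes name TopHat without its version. No source used here gives the counting step or the genome build. Start and end of all 7 genes equal those of the R64 reference, as they do for 5757 of 5789 genes matched by locus tag. Multiplied by length and divided by a factor of its library, every density came out as a whole read number (100% of values, within 0.001), and the recovered reads sum to 20102931 to 27498217 per library.

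A pseudocount of 0.0120173, the 10th percentile of positive values, was added before taking log2, and features at or above it in at least 2 libraries were kept (11485, of which 5725 are genes). The model, in limma 3.58.1 (R 4.3.3), had 1 mean per group, a variance trend, two-sided moderated tests, 6 residual degrees of freedom, and Benjamini-Hochberg adjustment in each of 11 comparisons. The scripts were tested on simulated data. Python 3.11.15 with Biopython 1.88, NumPy 2.4.6, pandas 2.3.3 and matplotlib 3.10.9 served for sequences, tables and figures.

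Alternatives were a pseudocount 10 times larger or 0.1 times as large, no filter, median of ratios scaling, quantile normalization, limma-voom on recovered reads, a replicate block, only the libraries compared, and each library left out in turn. The 7 genes and the lists of related genes were chosen with earlier results of these data known. The text names all 7 genes, RRP6, up to 3 called genes of each list per comparison, 5 genes most alike in pattern, and annotated features that overlap the genes or lie within 500 nt. Past these 3, RAD53 and a 4th cofactor or electron donor gene were named after their values were seen. In the main fit, p-values set each difference against the spread between the replicates sequenced, pooled over all groups and moderated across features.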

Additional observations from a re-analysis of the deposited data

Results flagged for a closer look

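HUG1 differed between times in its response to FU: the log2 fold change against wild type was larger by 3.36 at 100 min than at 40 min, by the interaction test in limma (adjusted p = 0.0226). It was the only one of the 7 genes called in that test.

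RNR1 and RNR2 moved in opposite directions with time in the FU and rrp6 cultures, with both libraries at 100 min on the same side of both libraries at 40 min in each. RNR1 had a log2 fold change of 0.51 for 100 against 40 min with FU and of −2.10 in rrp6. RNR2 had 2.65 with FU and −0.72 in rrp6. The difference between FU and rrp6 in the change with time was not tested. Of these 4 values, those of RNR2 with FU and of RNR1 in rrp6 passed the threshold.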

How the results depend on the processing

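Over all alternatives to the calls on single genes, 236 values kept the call, 39 lost it and 5 changed sign. HUG1, RNR2 and RNR3 with FU at 100 min, and RNR1, RNR3, RNR2, RNR4 and HUG1 with FU against rrp6 at 100 min, kept their calls in all 12 alternatives. The cause of each change below was not tested.

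Counts of genes called moved as follows. With FU at 100 min against wild type, 4 became 7 when only the libraries compared were fitted. In rrp6 at 100 min, 5 became 3 with median of ratios scaling and 2 with quantile normalization, and 2 to 3 without 1 library. In rrp6 at 40 min, 2 became 0 with quantile normalization and 2 to 4 without 1 library. For FU against rrp6 at 40 min, 1 became 0 with only the libraries compared and 0 to 1 without 1 library. For FU at 100 against 40 min, 4 became 1 with only the libraries compared and 1 to 4 without 1 library. For rrp6 at 100 against 40 min, 1 became 0 with median of ratios scaling, 3 with only the libraries compared and 0 without any 1 library. In wild type at 100 against 40 min, 0 became 1 with the smaller pseudocount and with median of ratios scaling, and 0 to 1 without 1 library. With FU at 40 min, 0 became 0 to 1 without 1 library. For the FU by time test, 1 became 3 with the larger pseudocount, 0 with quantile normalization, limma-voom or only the libraries compared, and 0 to 3 without 1 library.

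Same-numbered replicates correlated above 0.1 in 10 of 15 pairs of groups (−0.0910 to 0.778), and in all 6 pairs among the FU and wild-type groups (0.226 to 0.778). With 2 replicates a group and no label that ties equal numbers, the numbers were not taken to pair the samples. With the replicate block, called genes became 1 with FU at 40 min (HUG1, adjusted p = 0.0366), 2 for FU against rrp6 at 40 min and 1 in wild type between times (HUG1, 0.0181). RNR1 and DIF1 with FU at 100 min were also called (0.0236 and 0.0356).

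Signs changed in these cases. With quantile normalization, rrp6 against wild type gave RNR3 −0.46, HUG1 −0.42 and DIF1 −0.11 at 100 min, and RNR3 −0.34, HUG1 −0.094, DIF1 −0.42 and RNR4 −0.39 at 40 min, and FU against rrp6 at 40 min gave RNR3 0.55, HUG1 0.29 and DIF1 0.48. With median of ratios scaling, rrp6 against wild type at 40 min gave RNR1 −0.10 and RNR4 −0.26, FU against rrp6 at 40 min gave DIF1 0.086, and wild type between times gave SML1 0.015. With limma-voom, rrp6 by time gave RNR3 0.025.

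Without 1 library, with the lowest and highest log2 fold change, signs changed in FU against wild type at 40 min RNR4 (−0.0064 to 1.23), SML1 (−0.89 to 1.91), in FU against rrp6 at 40 min RNR4 (−0.23 to 1.00), DIF1 (−0.20 to 0.16), SML1 (−0.84 to 1.96), in FU between times SML1 (−0.30 to 2.50), in FU by time SML1 (−0.27 to 2.53), in rrp6 by time RNR3 (−0.35 to 0.16), in rrp6 against wild type at 40 min SML1 (−0.53 to 0.42), RNR1 (−0.21 to 0.99), RNR4 (−0.27 to 0.72), in wild type between times DIF1 (−0.10 to 0.25), RNR1 (−1.04 to 0.16), RNR2 (−0.090 to 0.35), SML1 (−0.50 to 0.45). None of the values with a changed sign was called, while RNR1 in rrp6 at 40 min was called at 0.99 without wild-type replicate 2 (adjusted p = 0.0198). In wild type HUG1 rests on 8 to 30 reads, RNR3 on 30 to 70 and MUT788 on at most 3, which limits how finely their fold changes are known.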

Other observations

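Features beside the 7 genes had values of their own. YJL027C, an open reading frame that starts upstream of RNR2 on the other strand, had densities of 0.158 and 0.228 in rrp6 cultures at 100 min, against 0.00935 and 0.0154 in wild type. The rrp6 libraries lay above both wild-type libraries, with a log2 difference of 3.06 ± 0.29 (SE, limma, n = 2 each, adjusted p = 5.16e-05). TDA2, on the other strand beside RNR1, had densities of 1.20 and 1.33 in rrp6 cultures at 100 min, against 0.540 and 0.547 in wild type. Its log2 difference was 1.20 ± 0.20 (SE, limma, n = 2 each, adjusted p = 0.00092), while the FU difference at that time was −0.077 and did not pass the test (adjusted p = 0.845, limma). CAR2, ornithine transaminase of arginine breakdown, lies on the other strand beside DIF1 and was lower in rrp6 at 100 min. Its densities at 100 min were 0.816 and 0.617 in rrp6 cultures, against 1.82 and 2.33 in wild type, a log2 difference of −1.52 ± 0.36 (SE, limma, n = 2 each, adjusted p = 0.00523). At 40 min CAR2 had 0.877 and 0.533 in rrp6 cultures, against 0.905 and 0.478 in wild type, and was not called (adjusted p = 0.908, limma). XUT1381, a non-coding transcript on the other strand downstream of RNR2, had 12 and 17 reads in FU cultures at 100 min, against 4 and 1 in wild type. Its log2 difference of 1.56 ± 0.35 did not pass the test (SE, limma, n = 2 each, adjusted p = 0.0584). These 4 features were picked from the neighbours after their values were seen.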
